A study of Mus musculus with 8 samples.

Results

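RNA levels per gene were compared between mouse embryonic stem cells treated with sd-linc1393 and the same kind of cells treated with sh-linc1393. These are 4 of the 8 libraries of the series, 2 sd and 2 sh, chosen by their labels and not by any measured value. The other libraries are 2 from untreated wild-type cells (control) and 2 from cells treated with dd-linc1393 (dd). All cells are labelled as mouse embryonic stem cells, the labels give no other allele or agent, and linc1393 is a long intergenic non-coding RNA. The labels do not say what sh, sd and dd stand for, by what route, dose or time the cells were treated, or which line they came from, so the names are used as given. Both groups received a reagent named for the same RNA, so the comparison sets 2 such reagents against each other and not against untreated cells. No row of the table could be tied to linc1393, so the target itself was not analysed here. Whether the paired libraries of each group are separate cultures is not stated, and the p-values below then reflect no more than library-to-library spread, which could be technical.

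Mouse embryonic stem cells come from the inner cell mass of the blastocyst and keep the capacity to form all embryonic lineages. Their state rests on a network of transcription factors in which Pou5f1 (Oct4) and Sox2 bind DNA side by side and, with Nanog, sustain their own expression and hold back lineage genes. LIF acting through Stat3 supports this state in culture, while FGF4 acting through ERK prepares the cells for lineage entry. Long non-coding RNAs have been studied in these cells as factors that guide chromatin regulators or bind small RNAs, so lists for both kinds of machinery are described below beside the pluripotency and lineage genes.

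The values are FPKM, a read count scaled for gene length and library size, so levels of different genes can be set side by side. Reads assigned to genes numbered 13738591 and 13972322 in sh replicates 1 and 2, and 20346942 and 15365414 in sd replicates 1 and 2. At these depths the smallest amount counted here as measurable, 3 reads on a gene of 1 kb, was worth 0.147 to 0.218 FPKM in the 4 libraries. Libraries of the same replicate number were far more alike than libraries of the same group. Spearman's rho over the 14787 genes tested was 0.912 between sh and sd replicate 1 and 0.944 between sh and sd replicate 2. It was 0.538 between the sh replicates and 0.597 between the sd replicates. The control and dd libraries split in the same way. Differences are therefore given by group means and within each number, as log2(FPKM + 1) in sd minus that in sh, and a positive value means higher in sd. What the replicate numbers stand for is not given in the labels.

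The 10 marker genes of embryonic stem cells were all detected in all 4 libraries. Their summed levels were 1392 and 6915 FPKM in sh replicates 1 and 2 and 1812 and 10022 FPKM in sd replicates 1 and 2. In replicate 2 most of each sum came from Dppa5a alone, at 5866 FPKM in sh and 8584 in sd. The sums therefore do not stand for the 10 genes alike. Of 10 genes of fibroblast feeders, 2 reached a mean of 1 FPKM, Vim and Fn1, with a summed level for the 10 of 67.2 to 112 FPKM. In the replicate 1 libraries 5 of the 10 feeder genes were at 0 in sh and 4 in sd. Among markers of other lineages, the summed levels were 9.87 to 12.1 FPKM for neuroectoderm, 3.66 to 10.9 for mesoderm and streak, 4.14 to 35.6 for primitive endoderm and 11.7 to 19.96 for trophoblast. The labelled cell type thus had its defining markers in both groups. In libraries made from many cells, fewer cells of a type and less RNA per cell cannot be told apart, and this holds for each lineage gene below.

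No gene passed the test between sd and sh. The fit was limma on log2(FPKM + 1) over all 8 libraries, and it called 0 of 14787 genes at an adjusted p under 0.05 (0% of genes tested), with 17 genes (0.115%) at an unadjusted p under 0.05. Blocking on the replicate number, the count was also 0 (0%), with 353 genes (2.39%) at an unadjusted p under 0.05. The smallest adjusted p of any gene was 1 both without and with the block, so each gene below is a description of 4 libraries and its adjusted limma p is not repeated. With only the 4 sd and sh libraries and the block, 129 genes (0.872%) passed, 80 higher and 49 lower in sd. That fit has 1 residual degree of freedom. The 129 genes include 61 of the 3543 processed pseudogenes tested and 17 of the 22 mitochondrial tRNA genes. They also include 12 of the 10064 protein-coding genes and 10 of the 123 small nucleolar RNA genes tested. The protein-coding genes with established symbols among them were Pou5f1, Sox2, Apela, Zfp977, D1Pas1, Gorab and Sephs2. Pou5f1 (-0.42 and 3.06), D1Pas1 (3.56 and -0.26) and Gorab (3.38 and -0.05) had opposite signs within replicates 1 and 2. The sign was the same within both numbers for 8 of the 12 protein-coding genes and for 114 of the 129.

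The 2 replicate numbers gave largely different pictures of the same comparison. The median difference of all genes was 0.00 by group means, 0.17 within replicate 1 and -0.19 within replicate 2. Of the 14787 genes, 2951 (20%) were higher in sd within both numbers and 3678 (24.9%) were lower within both. Against the median of its own number, 4120 genes (27.9%) lay above it in both and 4120 (27.9%) below it in both. Libraries of the 2 groups were separate for few genes, with both sd above both sh libraries for 625 (4.23%) and both below for 643 (4.35%). Across genes, which are not independent replicates, the differences within the 2 numbers had a Pearson correlation of 0.14 and a Spearman correlation of 0.16. For the 10064 protein-coding genes the Spearman correlation was 0.07, and 42.5% had the same sign in both.

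**Figure D1:**
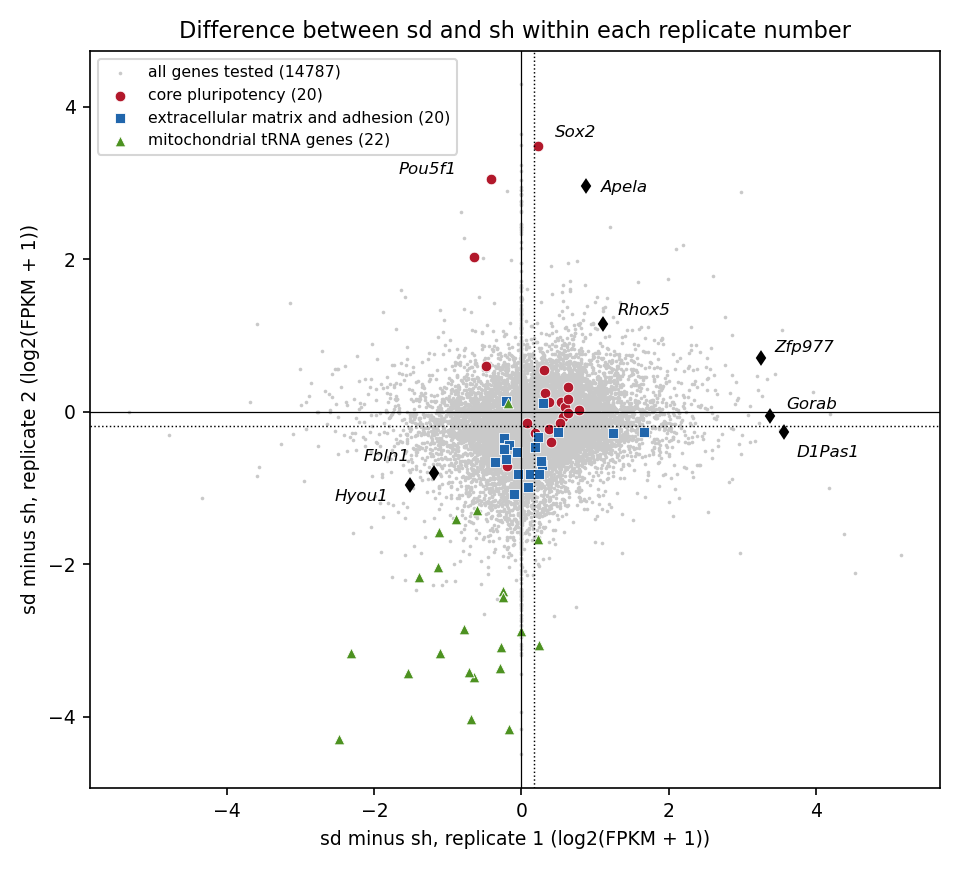
Each point is 1 of the 14787 genes tested, with the sd minus sh difference in log2(FPKM + 1) within replicate 1 on the x axis and within replicate 2 on the y axis; dotted lines mark the medians of all genes, 0.17 and -0.19, and red circles, blue squares and green triangles mark core pluripotency, matrix and mitochondrial tRNA genes. Sox2, Pou5f1 and Apela lie at the top, between 2.96 and 3.49 within replicate 2, while Gorab and D1Pas1 lie at the right, at 3.38 and 3.56 within replicate 1, and 44.8% of all genes have the same sign in both.

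The core pluripotency genes lay mostly higher in sd. Of 20 listed genes, all 20 were tested and 17 were higher by group means, beside 50.3% of all genes, and 3 were lower (Lin28a, Utf1 and L1td1). Within both replicate numbers 9 were higher and 1 was lower, and 12 lay above the median of all genes in both while 1 lay below. The list's median difference was 0.30, with 0.37 within replicate 1 and 0.10 within replicate 2, and 0 of the 20 passed the test. Leaving out sd replicate 1 gave a median of -0.04 in a fit without the block, in which unequal replicate numbers stand against each other.

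Sox2, Pou5f1 and the peptide hormone gene Apela had the largest differences of the list genes within replicate 2, and each turned on 1 or 2 libraries. The stretches of 250 bases directly before their RefSeq transcription starts (GRCm38.p6, written 5′ to 3′ on the gene's strand) are shown so that the upstream sequence of these 3 genes can be compared. Capitals mark the GC box, searched as GGGCGG on both strands, a motif bound by Sp family factors and present in 32.7% of the 32817 windows of the same length before RefSeq starts. The windows lie at chr3:34649745-34649994 on the plus strand for Sox2, chr17:35505782-35506031 on the plus strand for Pou5f1 and chr8:65037337-65037586 on the minus strand for Apela.
Sox2: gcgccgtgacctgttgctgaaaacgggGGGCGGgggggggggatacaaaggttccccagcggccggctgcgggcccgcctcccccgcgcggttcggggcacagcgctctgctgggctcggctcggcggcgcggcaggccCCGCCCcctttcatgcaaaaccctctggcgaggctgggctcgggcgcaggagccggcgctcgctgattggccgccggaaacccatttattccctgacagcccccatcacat
Pou5f1: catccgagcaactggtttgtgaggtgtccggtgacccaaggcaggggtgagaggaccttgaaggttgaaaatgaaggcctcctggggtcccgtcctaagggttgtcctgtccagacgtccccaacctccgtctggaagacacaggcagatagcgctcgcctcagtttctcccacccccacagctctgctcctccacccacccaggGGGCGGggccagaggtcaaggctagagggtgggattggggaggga
Apela: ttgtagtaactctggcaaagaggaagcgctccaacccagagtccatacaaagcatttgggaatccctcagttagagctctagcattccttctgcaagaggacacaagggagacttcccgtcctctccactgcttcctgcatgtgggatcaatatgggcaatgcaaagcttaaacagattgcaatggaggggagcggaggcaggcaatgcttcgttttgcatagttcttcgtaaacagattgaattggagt
Counted from the first base shown, the Sox2 window held a GC box at bases 28 to 33 on its own strand and another at bases 140 to 145 on the opposite strand, and the Pou5f1 window held 1 at bases 206 to 211. RefSeq lists 2 starts for Pou5f1, and the window shown is that of the start nearest to the GENCODE start. None was found in the Apela window. The octamer ATGCAAAT, the motif of POU factors, was in none of the 3 windows and in 1.6% of all windows. These matches describe the letters of the windows and say nothing of the factors.

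Sox2, an HMG box factor at the centre of the network (chromosome 3, 34650405 to 34652461), had 177 and 19.7 FPKM in sh replicates 1 and 2 and 207 and 231 FPKM in sd replicates 1 and 2. Sh replicate 2 stood alone: the other libraries, including control (200 and 291) and dd (235 and 371), lay between 177 and 371 FPKM. The low value rested on 567 reads, against 5003 to 8682 in the other 3 libraries of the comparison. Both sd libraries lay above both sh libraries, and the ratio of sd to sh was 1.17 within replicate 1 and 11.7 within replicate 2. The mean difference was 1.86 (SE 1.08, limma, unadjusted p = 0.132), and without sh replicate 2 it was 0.31. Sox2 lies inside Sox2ot, a long RNA on the same strand, which had 0 to 0.420 FPKM in the 4 libraries.

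Pou5f1, the POU factor that partners Sox2 (chromosome 17, 35506018 to 35510772), had 24.2 and 14.7 FPKM in sh and 17.8 and 130 FPKM in sd. The groups overlapped: sd replicate 1 lay between the sh libraries, and sd replicate 2 stood 8.81-fold above sh replicate 2. The control libraries had 83.1 and 251 FPKM and the dd libraries 21.03 and 53.1. Within each replicate number the sh, sd and dd values all lay below control, including sd replicate 2 at 130 against 251 FPKM. The differences were -0.42 and 3.06, with a mean of 1.32 (SE 1.12, limma, unadjusted p = 0.279), and -0.08 without sd replicate 2. Of the 31-base stretches of its exons, 19.9% also occur in other annotated transcripts, so some of its reads could have been assigned elsewhere.

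Apela encodes a secreted peptide that binds the apelin receptor and supports embryonic stem cells in culture. Its FPKM was 50.5 and 71.3 in sh and 94.0 and 563 in sd, so both sd libraries lay above both sh libraries. It was 1.86-fold higher in sd within replicate 1 and 7.90-fold higher within replicate 2. The control libraries had 37.6 and 70.2 FPKM and the dd libraries 70.0 and 142. The mean difference was 1.92 (SE 0.998, limma, unadjusted p = 0.0978), and 0.64 without sd replicate 2. Apela shares 28.7% of its 31-base stretches with other transcripts and overlaps Gm45886 on the same strand.

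Nanog, the homeobox factor of the network, varied little. It had 230 and 247 FPKM in sh and 335 and 269 FPKM in sd, so the sd libraries lay above the sh libraries by 1.46-fold and 1.09-fold. The mean difference was 0.33, with an SE of 0.65 by limma without the block and of 0.28 with it, and neither fit called the gene. Zfp42 (Rex1, a zinc finger marker of the ground state) was higher in sd within both numbers, by 0.32 and 0.24. Among the Dppa genes, which mark pluripotent cells and the germ line, Dppa2 (0.63 and 0.32), Dppa4 (0.64 and 0.16) and Dppa5a (0.31 and 0.55) were higher in sd within both numbers, while Dppa3 was lower by -0.64 within replicate 1 and higher by 2.02 within replicate 2. Dppa5a and Dppa2 share 60% and 38.2% of their 31-base stretches with other transcripts. Lin28a, an RNA-binding protein that blocks let-7 maturation, was the 1 member lower within both numbers, by -0.20 and -0.70.

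**Figure D2:**
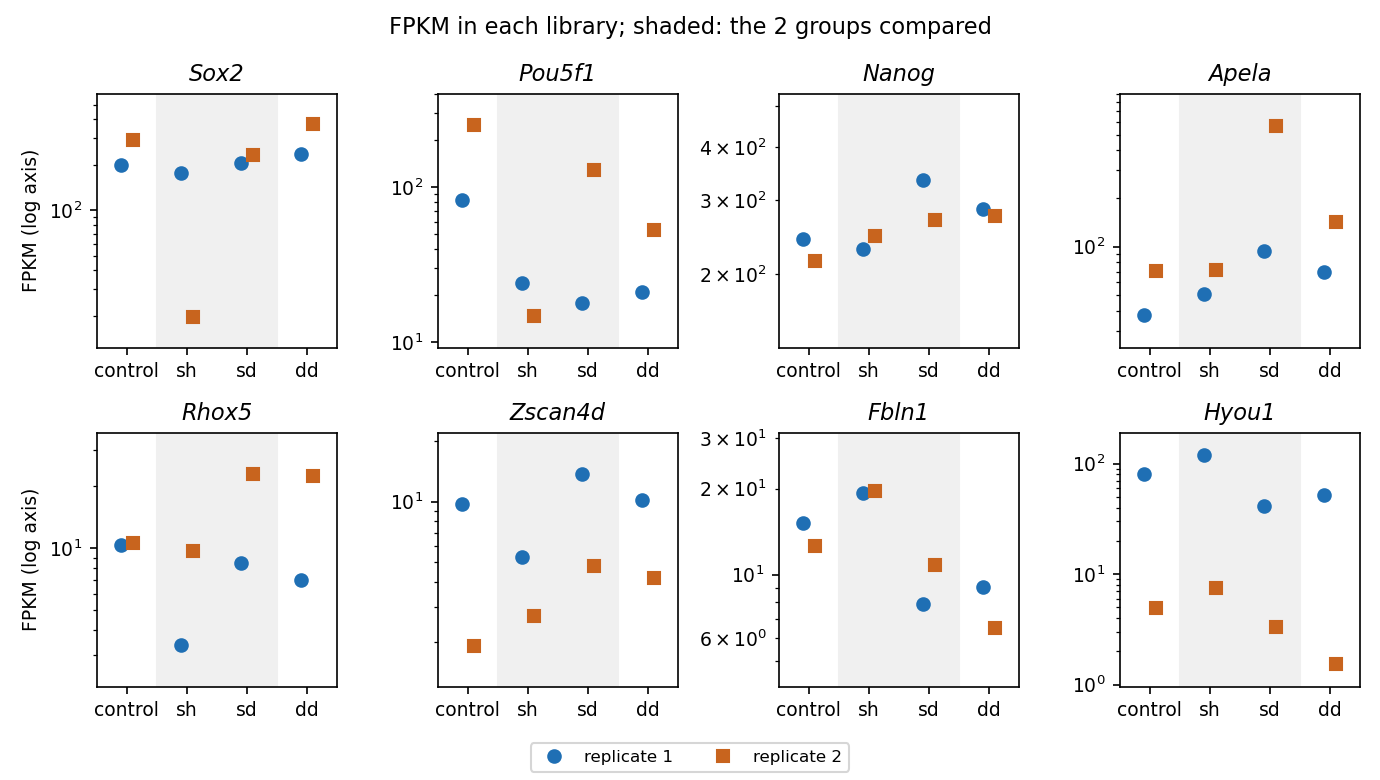
FPKM on a log axis for 8 genes in each library of the 4 groups, circles for replicate 1 and squares for replicate 2, with the 2 groups compared shaded; no error bars are drawn since each library is shown. The sh replicate 2 point of Sox2 (19.7) lies below the other 7, the sd replicate 2 point of Apela (563) lies above the other 7, and both sd points of Fbln1 (7.89 and 10.8) lie below both sh points (19.3 and 19.6).

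Naive pluripotency genes, which mark the ground state, were evenly spread. Of 20 tested, 13 were higher and 7 lower in sd by group means, 6 were higher and 4 lower within both numbers, and the median was 0.05. Nr0b1 (Dax1, an orphan nuclear receptor) was higher by 0.46 and 0.47. Prdm14, a repressor of FGF signalling and DNA methylation, was lower by -0.65 and -0.28, and Tet2, which oxidises 5-methylcytosine, by -0.65 and -0.37. Tet2 had 183 and 2.02 FPKM in sh and 116 and 1.33 in sd, so the replicate numbers differed far more than the groups. Klf4 (98.1 and 73.8 FPKM in sh, 106 and 72.6 in sd) and Esrrb (21.5 and 48.4 in sh, 29.5 and 34.7 in sd), both factors of naive cells, overlapped between groups.

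Of 18 formative and primed genes, which mark cells leaving the naive state, 13 were tested, 6 higher and 7 lower by group means with a median of -0.06. Otx2, a homeobox factor of formative cells, had 1.45 and 5.44 FPKM in sh and 4.65 and 7.45 in sd, higher by 1.21 and 0.39 within the numbers. Fgf15 and Zic2 were lower within both numbers, by -0.28 and -0.60 and by -0.43 and -0.18. No direction was shared by the list.

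Primitive endoderm genes lay mostly lower in sd. All 16 listed genes were tested, of which 14 were lower by group means, beside 49.7% of all genes, and 2 (Gata4 and Foxa2) were higher. Within both replicate numbers 8 were lower and 0 higher. The median was -0.32, with -0.19 within replicate 1 and -0.20 within replicate 2. Since the median of all genes was -0.19 within replicate 2, the list stood apart from it in replicate 1 and hardly in replicate 2. In fits without the block that leave out 1 library, the median was 0.37 without sh replicate 1, -0.91 without sh replicate 2, -0.97 without sd replicate 1 and 0.27 without sd replicate 2. None of the 16 passed the test.

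Sox17, an endoderm transcription factor, had 5.54 and 1.005 FPKM in sh and 3.23 and 0.573 in sd. Dab2, an endocytic adaptor of the visceral endoderm, had 10.5 and 0.819 FPKM in sh and 7.25 and 0.337 in sd. Gata6, which drives the lineage, had 5.59 and 1.14 FPKM in sh and 5.09 and 0.870 in sd. Over the 6 endoderm marker genes the summed level was 35.6 and 5.35 FPKM in sh and 21.5 and 4.14 in sd. In Sox17, Dab2 and Gata6 the sd value was the lower within its number, while the groups overlapped. Pdgfra was also lower within both numbers, by -0.66 and -0.15. Sox7 and Gata4, the remaining markers in the sum, had opposite signs within the numbers. Sox7 had 8.67 and 0.521 FPKM in sh and 1.91 and 0.907 in sd, and Gata4 differed by 0.41 and -0.17.

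Trophoblast genes were mostly below the level tested, with 6 of 14 tested. Of these, 5 were lower in sd by group means and 4 within both numbers, with a median of -0.38, which turned to 0.07 when only genes with a mean of 5 FPKM or more were kept. Krt8, an intermediate filament keratin of simple epithelia, had 3.57 and 4.20 FPKM in sh and 0.176 and 2.92 in sd, so both sd libraries lay below both sh libraries. The lowest of these values rested on 7 reads. Tfap2c, a trophoblast factor that naive stem cells also express, was the member higher within both numbers, by 0.46 and 0.44. Of 14 neuroectoderm genes 4 were tested (Sox1, Nes, Tubb3 and Sox11), with 3 lower by group means. Of 14 mesoderm and streak genes 3 were tested.

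Genes of the 2-cell-like state, a rare state of stem cell cultures that resembles the early embryo, were mixed. By group means 6 of 9 tested were higher in sd, beside 50.3% of all genes. Of the Zscan4 family, Zscan4c, Zscan4d and Zscan4f encode zinc finger proteins of this state, while Zscan4a is annotated as an unprocessed pseudogene. Zscan4d had 5.32 and 2.71 FPKM in sh and 13.8 and 4.81 in sd, and Zscan4f had 5.39 and 6.17 in sh and 12.1 and 7.91 in sd. Zscan4a and Zscan4c were also higher within both numbers, by 0.32 and 0.44 and by 0.64 and 0.62, while Zscan4b was not higher within either (-0.00 and -0.49). The tested members outside this family were lower within replicate 1 and higher within replicate 2. These were Tcstv1 (-0.34 and 0.19), Tcstv3 (-0.30 and 0.23) and Eif1a (-0.14 and 0.33). The copies share 63.7% to 94.8% of their 31-base stretches for Zscan4a, c, d and f, so their reads cannot be assigned to 1 copy with certainty. The list's median was 0.11 by group means and 0.32 and 0.31 within the numbers, where different genes sit at the middle. The summed level of the state's 6 marker genes present in the table was 23.6 and 19.8 FPKM in sh and 44.0 and 28.6 in sd. In control it was 22.1 and 11.9 and in dd 32.0 and 23.3. This sum includes Zscan4c, Zscan4d and Zscan4f, so it is not independent of their values above.

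Genes of the extracellular matrix and its receptors lay mostly lower in sd. Of 20 tested, 16 were lower by group means and 4 higher, 8 were lower and 1 higher within both numbers, and 10 lay below the median of all genes in both while 1 lay above. The median was -0.29, with 0.10 within replicate 1 and -0.51 within replicate 2, so the lower values came mainly from replicate 2. The medians without each library in turn ran from -0.46 to -0.01. Lama1, the laminin alpha chain of early basement membranes, had 10.5 and 3.72 FPKM in sh and 8.001 and 1.997 in sd. Lama1 is also in the primitive endoderm list, which holds other laminin and collagen genes, so the medians of these lists are not independent. Fn1, which encodes fibronectin, had 31.9 and 79.0 in sh and 37.6 and 44.5 in sd. Itgb1, the common beta subunit of laminin and fibronectin receptors, had 36.8 and 25.5 in sh and 35.5 and 14.0 in sd. The epithelial adhesion gene Epcam was lower by -0.21 and -0.62, while Cdh1 (E-cadherin) was higher by 1.67 within replicate 1 and lower by -0.26 within replicate 2.

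Fbln1, which encodes the matrix protein fibulin 1 and was not in that list, had 19.3 and 19.6 FPKM in sh and 7.89 and 10.8 in sd. It was 1 of the few genes whose sh libraries were alike and whose sd libraries were both lower, by 2.44-fold and 1.82-fold. The mean difference was -0.997 (SE 0.53, limma, unadjusted p = 0.104), and it lay between -1.20 and -0.79 with each library left out in turn. Control had 15.2 and 12.6 FPKM and dd had 9.06 and 6.49. The sd value was thus nearer that of dd within replicate 1 and nearer that of control within replicate 2.

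In the signalling lists members pointed both ways. In the LIF and Stat3 list 14 genes were tested, with 6 higher and 8 lower by group means and a median of -0.12. Of the 14, 1 was higher and 5 were lower within both numbers. Socs3, the feedback inhibitor of the receptor, had 30.5 and 40.1 FPKM in sh and 22.6 and 31.7 in sd, and the kinase gene Pim3 had 21.2 and 55.8 in sh and 13.2 and 38.8 in sd. Bcl3 and Junb were lower by -0.39 and -0.47 and by -0.43 and -0.16, while Gbx2, a homeobox gene, was higher by 1.30 and 0.02. The receptor genes Lifr and Il6st were higher within replicate 1 (0.88 and 0.91) and lower within replicate 2 (-0.36 and -0.24).

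For FGF and ERK feedback, 10 of 14 tested genes were lower in sd by group means and 5 within both numbers, with a median of -0.14. Spry2, an inhibitor of receptor signalling, differed far more between replicate numbers than between groups, with 3918 and 3.33 FPKM in sh and 1750 and 3.27 in sd. The phosphatase genes Dusp6 and Dusp4 were lower by -0.34 and -0.17 and by -0.46 and -0.12, and the ETS factor gene Etv4 by -0.30 and -0.57. Fos, an immediate early gene, had 0.155 and 7.88 FPKM in sh and 5.02 and 10.1 in sd, and its value in sh replicate 1 rested on 5 reads. Of 8 Wnt targets tested, 3 were higher and 5 lower. Of 13 Nodal and BMP targets, 6 were higher and 7 lower. Lefty2, a Nodal inhibitor, was higher by 0.24 and 0.49.

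Genes of DNA replication were higher in sd more often than lower. Of 32 tested, 22 were higher and 10 lower by group means, 10 were higher and 2 lower within both numbers, and 13 lay above the median of all genes in both while 3 lay below. The median was 0.11, with 0.40 within replicate 1 and -0.17 within replicate 2. The GINS subunit genes Gins1 (0.83 and 0.44) and Gins4 (0.43 and 0.34) and Orc1 of the origin recognition complex (0.70 and 0.23) were higher within both numbers. Cdc45, which joins GINS and the MCM ring in the replicative helicase, was lower by -0.78 and -0.64. The helicase subunit genes Mcm2 to Mcm7 had differences of -0.14 to 0.64 within replicate 1 and of -0.41 to 0.10 within replicate 2.

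Of 28 genes of mitosis, 16 were higher and 12 lower by group means, with 6 higher and 0 lower within both numbers and a median of 0.03. Cenpa, the centromeric histone variant, had 17.3 and 24.9 FPKM in sh and 27.6 and 33.0 in sd, so both sd libraries lay above both sh libraries. Ccnb1 (cyclin B1) was higher by 0.45 and 0.11. Replication histone genes ran the other way: of 21 tested, 16 were lower and 5 higher by group means, with a median of -0.31, -0.52 within replicate 1 and -0.01 within replicate 2. Hist1h4h was lower by -0.95 and -0.69, and Hist1h3a was higher by 1.08 and 0.38. These genes share 54.5% and 57.7% of their 31-base stretches with other annotated transcripts, and most of the list lay under 10 FPKM.

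For cytosolic ribosomal proteins, all 77 genes were tested, with 51 lower and 26 higher by group means, 33 lower and 14 higher within both numbers, and a median of -0.08. Rpl34 had 28.3 and 30.2 FPKM in sh and 17.1 and 18.9 in sd, so both sd libraries lay below both sh libraries. Rps10 was lower by -0.67 and -1.15, Rpl9 by -0.41 and -0.51 and Rps26 by -0.42 and -0.47. Their exons share 29% (Rpl34) to 54.8% (Rps10) of their 31-base stretches with other annotated transcripts. Rpl10l, a retrocopy of Rpl10 that is chiefly a testis gene, went the other way, with 193 and 194 FPKM in sh and 355 and 295 in sd. Rpl10l shares 26% of its 31-base stretches with other annotated transcripts, so some of its reads may not be its own.

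Glycolysis had 10 genes higher and 10 lower of 20 tested, with a median of 0.01 by group means, 0.38 within replicate 1 and -0.37 within replicate 2. Pgam1 (phosphoglycerate mutase) was higher by 0.65 and 0.28, and Pfkl (liver-type phosphofructokinase) was lower by -0.46 and -0.92. Of 22 cholesterol synthesis genes, 10 were higher and 12 lower, with 3 higher and 8 lower within both numbers and a median of -0.07, 0.16 within replicate 1 and -0.20 within replicate 2. Insig1, which holds the SREBP precursor in the endoplasmic reticulum, had 708 and 31.4 FPKM in sh and 306 and 20.7 in sd. The sd value of Insig1 was lower within each number while the groups overlapped.

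Of 17 Atf4 stress genes tested, 10 were higher and 7 lower by group means, with 6 higher and 2 lower within both numbers. Asns (asparagine synthetase) was higher by 0.59 and 0.31 and Psat1 (serine synthesis) by 0.34 and 0.47, while Ddit4, an inhibitor of mTORC1, was lower by -0.25 and -1.17. Of 16 p53 targets, 7 were higher and 9 lower, with 0 higher and 3 lower within both numbers, Bbc3, Btg2 and Gtse1. The interferon response had 9 of 24 genes tested, 6 higher and 3 lower, and all 4 libraries held the Ifit and Mx genes of the list below 1 FPKM. Ifitm1, also a germ cell and stem cell gene, was higher by 0.53 and 0.26.

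Of 18 tested genes of the Wdr5 and H3K4 methyltransferase complexes, 10 were higher and 8 lower by group means, with 0 higher and 3 lower within both numbers. Wdr5, the adaptor shared by these complexes, had 13.3 and 51.8 FPKM in sh and 23.7 and 40.2 in sd, higher by 0.79 within replicate 1 and lower by -0.36 within replicate 2. The 3 lower members were the methyltransferase genes Kmt2d (-0.29 and -0.24), Setd1a (-0.22 and -0.23) and Setd1b (-0.51 and -0.16). Of 22 Polycomb genes, 18 were higher and 4 lower by group means, with 6 higher and 3 lower within both numbers and a median of 0.15, 0.33 within replicate 1 and -0.09 within replicate 2. Aebp2, an accessory factor of the H3K27 methyltransferase complex, was higher by 0.57 and 0.25, and Pcgf2 was lower by -0.50 and -0.29. Of 17 small RNA processing genes, 9 were higher and 8 lower. Xpo5, the exporter of miRNA precursors, was higher by 1.05 and 0.11, and Drosha, the nuclear processing enzyme, was higher by 0.97 within replicate 1 and lower by -0.85 within replicate 2.

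**Figure D3:**
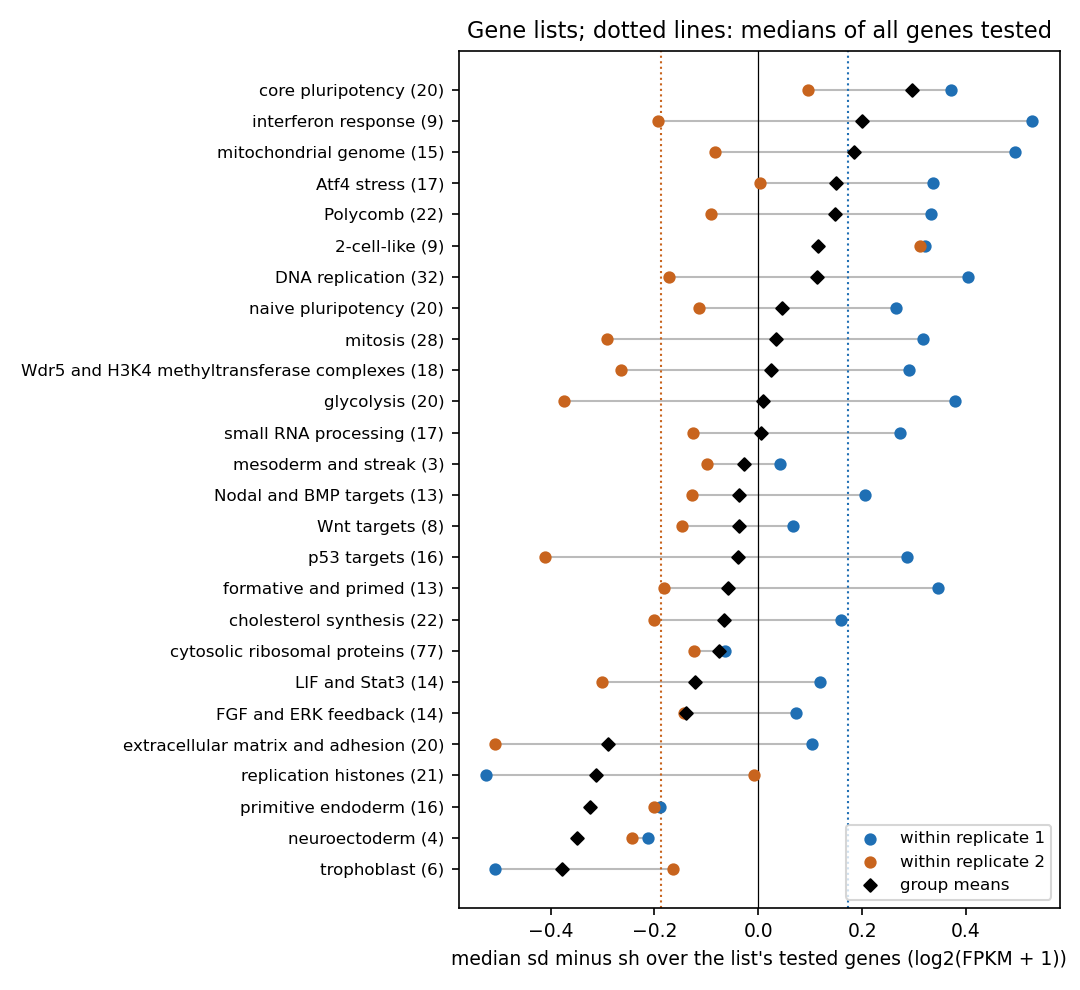
Median sd minus sh difference in log2(FPKM + 1) of each list with at least 3 tested genes (their number in parentheses), by group means (diamonds), within replicate 1 (blue circles) and within replicate 2 (orange circles), with dotted lines at the medians of all genes, 0.17 and -0.19. Core pluripotency lies at 0.30 by group means and extracellular matrix and adhesion at -0.29, and in most lists the replicate 1 point lies to the right of the replicate 2 point.

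RNAs of the mitochondrial genome differed by class. Messages of the 13 mitochondrial protein-coding genes, subunits of the respiratory chain and ATP synthase, were higher in sd for 10 by group means, with 6 higher and 0 lower within both numbers. Their median was 0.29, with 0.53 within replicate 1 and -0.05 within replicate 2. Together with the rRNA genes the median was 0.18, and -0.04 after quantile normalization. For example, mt-Co3 had 14698 and 4173 FPKM in sh and 19608 and 6150.4 in sd. The 2 mitochondrial rRNA genes were lower within both numbers, mt-Rnr1 by -0.11 and -0.17 and mt-Rnr2 by -0.02 and -0.32. Up to 100% of the 31-base stretches of these messages also occur in other annotated transcripts.

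Mitochondrial tRNA genes, which were singled out after their values were seen, were all lower in sd by group means. This held for 22 of 22, with 18 lower within both numbers and a median of -1.73, -0.66 within replicate 1 and -2.96 within replicate 2. Both sd libraries lay below both sh libraries for 8 of the 22, beside 4.35% of all genes. By limma 0 of the 22 passed, with or without the block, and 17 passed in the blocked fit of only the 4 libraries, in which 0.872% of all genes passed. Mt-Tv, the valine tRNA, had 74.9 and 80.9 FPKM in sh and 24.9 and 6.602 in sd, on 71, 78, 35 and 7 reads, and was 3.004-fold and 12.3-fold lower. Mt-Tq, the glutamine tRNA, had 977 and 616 FPKM in sh and 371 and 137 in sd. Mt-Ts1 was the exception to a large difference, at -0.19 and 0.11. These genes are short, with 59 to 75 bases each.

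As a share of all reads assigned to genes, mitochondrial tRNA reads came to 0.101% and 0.0214% in sh and to 0.0659% and 0.0055% in sd. The control libraries had 0.0642% and 0.0807% and the dd libraries 0.0686% and 0.0215%. Sd replicate 2 was thus the lowest of the 8, sh replicate 1 the highest, and sh replicate 2 was close to dd replicate 2. Small nucleolar RNA genes, likewise short and looked at after their values were seen, were lower for 97 of 123 by group means and higher for 26, with a median of -0.45. Of 87 miRNA genes 43 were higher and 44 lower by group means, but only 5 were higher and 6 lower within both numbers. Of 40 snRNA genes 17 were higher and 23 lower by group means, and 3 were higher and 5 lower within both numbers. Both classes had medians of 0 within both numbers. Such medians can come from genes at 0 FPKM in both libraries of a number, so they say little about differences in these classes. Whether the recovery of short RNAs differed between the libraries was not tested.

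**Figure D4:**
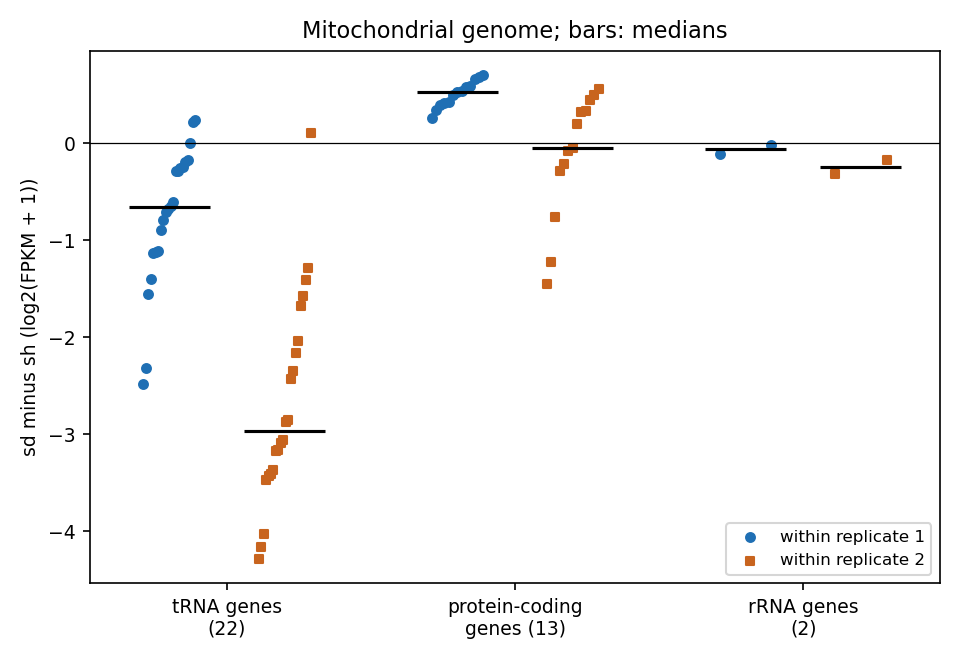
Sd minus sh difference in log2(FPKM + 1) of each mitochondrial gene within replicate 1 (circles) and within replicate 2 (squares), for 22 tRNA, 13 protein-coding and 2 rRNA genes, with bars at the medians. The tRNA medians are -0.66 and -2.96, and those of the protein-coding genes 0.53 and -0.05.

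Protein-coding and long non-coding genes with established symbols were also ranked by the smaller of their 2 within-number differences, among those whose 4 libraries were separated. The genes below were chosen by these values, which therefore carry no test beyond the limma fit. By this measure the first gene higher in sd was Pga5, a pepsinogen gene, with 1.35 and 2.57 FPKM in sh and 7.18 and 5.84 in sd. Mrps22, a mitochondrial ribosomal protein gene, had 1.31 and 4.88 FPKM in sh and 5.94 and 9.80 in sd. Cdkn2b, the cyclin-dependent kinase inhibitor p15, had 0.628 and 2.93 in sh and 4.14 and 5.85 in sd. Zfp977, a zinc finger gene, had 0.460 and 6.83 in sh and 13.0 and 11.8 in sd. Its value in sh replicate 1 rested on 9 reads, and its mean difference of 1.98 was 0.77 without that library.

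Genes at higher levels with the same order were Tomm5, a subunit of the import pore of the outer mitochondrial membrane (75.1 and 127 FPKM in sh, 131 and 195 in sd), and Uchl4, a deubiquitinase gene (46.4 and 58.9 in sh, 82.7 and 99.97 in sd). Coq10b, a coenzyme Q binding protein gene, was higher by 0.74 and 0.64. Without the demand for separate libraries, Rhox5, an X-linked homeobox gene of the reproductive cluster, ranked first, with 3.38 and 9.70 FPKM in sh and 8.46 and 22.8 in sd, that is 2.501-fold and 2.35-fold higher. Nxt1, a factor of mRNA export, had 13.6 and 39.2 in sh and 23.1 and 81.6 in sd. Cbr1, a carbonyl reductase gene, was higher by 1.25 and 0.79.

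Among genes with both sd libraries below both sh libraries, Agpat1, an acyltransferase of phospholipid synthesis, had 28.1 and 6.87 FPKM in sh and 6.83 and 3.34 in sd. Dact3, an inhibitor of Wnt signalling, had 3.87 and 4.19 in sh and 0.740 and 2.09 in sd. Sdcbp2 (syntenin 2) had 3.54 and 6.55 in sh and 1.48 and 2.74 in sd. Tcf15, a basic helix-loop-helix factor of cells preparing to leave the naive state, had 17.3 and 20.1 in sh and 10.1 and 11.1 in sd, while control had 12.9 and 15.6 and dd 29.9 and 9.66. The sperm channel subunit gene Catsperz had 3.23 and 2.95 FPKM in sh and 0.234 and 1.29 in sd, the former on 6 reads. Control lay at 0.371 and 0.650 FPKM for Catsperz, so there the sh libraries were the ones apart from control.

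Arc, an activity-regulated gene, was lower by -0.69 and -0.82 with the libraries separated. Where the groups overlapped, Hyou1, a chaperone of the endoplasmic reticulum, had 119.8 and 7.42 FPKM in sh and 41.2 and 3.35 in sd, which is 2.90-fold and 2.22-fold lower. Pmel, a melanosome matrix gene, had 3.81 and 13.5 in sh and 1.42 and 6.56 in sd. Sh3bgrl3 had 1.68 and 43.7 in sh and 0.239 and 21.5 in sd, and Stom (stomatin) 2.06 and 5.65 in sh and 0.713 and 2.51 in sd. The mean difference of Hyou1 was -1.23 with an SE of 2.18 by limma without the block and of 0.37 with it. In fits without the block it was 0.69 without sh replicate 1 and also positive without sd replicate 2, and it was -3.16 without sh replicate 2 and nearly as low without sd replicate 1.

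Among protein-coding and long non-coding genes with established symbols, outside the mitochondrial genome, the 3 in each direction on which the replicate numbers disagreed most were Sox2, Pou5f1 and Ly6a, higher in sd mainly within replicate 2, and D1Pas1, Gorab and Vpreb3, higher within replicate 1. Ly6a (Sca-1, a surface protein of stem and progenitor cells) had 1.93 and 2.73 FPKM in sh and 1.55 and 26.7 in sd. In control it had 0.129 and 19.1 and in dd 0 and 15.8, so sh replicate 2 was the low library of its number. Gorab, a Golgi protein gene, had 0.535 and 5.54 FPKM in sh and 15.0 and 5.31 in sd, and D1Pas1, a retrocopy of the RNA helicase gene Ddx3x, had 1.04 and 12.2 in sh and 23.2 and 9.97 in sd. The value of Vpreb3 in sh replicate 1 rested on 1 read. For both Gorab and D1Pas1, sh replicate 1 was the lowest of the 8 libraries, on 21 and 46 reads. In Sox2, Pou5f1 and Ly6a sh replicate 2 was thus the lowest library of its number over all 4 groups, and in Gorab and D1Pas1 sh replicate 1 was. In Apela sd replicate 2 was the highest of the 8 libraries.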

How the data were processed

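The labels name total RNA, and any selection of it is not given in the sources used here. Per the labels' protocols, stem cells were lysed and made into standard Illumina libraries. The authors' deposited values are FPKM per gene and library, per the file headers. Per the submitters' processing notes, CASAVA 1.4, HISAT2 and the mm10 build were used. The counting program, annotation, strand setting and the FPKM total were not stated in these sources. Of 58420 rows, 52338 held values and 52081 matched GENCODE M21 (GRCm38) by identifier. From deposited FPKM and union exon length, 98.3% to 98.89% of values under 100 reads were whole reads within 0.02, which gave read counts and depth. No molecular identifiers were used as far as the labels tell, so reads are not independent molecules and the floor of 3 reads covers counting error only.

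The 14787 genes whose FPKM averaged 1 or more in the 4 sd and sh libraries were tested with limma 3.58.1 (R 4.3.3) on log2(FPKM + 1), using a mean-variance trend, all 8 libraries in 4 groups, no covariate, 4 residual degrees of freedom, two-sided p-values and Benjamini-Hochberg adjustment at 0.05. This scale understates differences of low genes. Alternatives were other pseudocounts, filters and scalings, only the 4 libraries, the replicate number as a block, limma-voom on recovered reads (0 genes called) and each library left out. The labels give no meaning to the replicate numbers. The deviations of same-numbered libraries from their group means correlated at 0.770 to 0.887 over the 6 pairs of groups, so the numbers are treated as pairing the libraries, from the data. The fit was also run on simulated data, with equal changes in both sd libraries and capped noise. That setting does not mimic the disagreement between replicate numbers on sd minus sh, so no conclusion is drawn from it.

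The comparison, the 27 gene lists and the rules for named genes were chosen with earlier results of these data known. Named were Pou5f1, Sox2 and Nanog, in each list up to 4 members, by the smaller of their within-number differences of 1 sign, the 12 genes in each direction with the largest such difference and separate libraries, 6 more in each direction without that demand, and the 3 in each direction with the largest difference between numbers. Other list members and the mitochondrial and small RNA classes were named after their values were seen. Some named genes are not reported here. Stretches of 31 bases shared between annotated transcripts measure how uniquely a gene's reads could be assigned. Promoter sequences are from RefSeq (GRCm38.p6).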

Additional observations from a re-analysis of the deposited data

How the results depend on the processing

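The number of genes called was 0 under 14 of the 15 alternatives, including the replicate block with all 8 libraries and limma-voom with and without it. It was 129 with the replicate block and only the 4 sd and sh libraries. The median difference of all genes was -0.46 to 0.45 with 1 library left out, since unequal replicate numbers then stand against each other, and that of core pluripotency was -0.042 to 0.50. For primitive endoderm the median of -0.32 became -0.39 and -0.34 with pseudocounts of 0.1 and 0.5, -0.30 with a stricter filter of 5 FPKM, -0.35 with quantile normalization, -0.38 with median ratio scaling, -0.40 with limma-voom on recovered reads, -0.37 with limma-voom and the replicate block, and -0.97 to 0.37 with 1 library left out. In the fit of all 8 libraries the replicate block changed no call. Each group holds 1 library of each number, so the block, or keeping only the 4 libraries, cannot alter differences, directions or list medians. On log2(FPKM + 1) those alternatives therefore test only the calls. Of 43 named genes followed (26 under the stricter filter, 41 without sh replicate 1 and 42 without sh replicate 2), 0 turned in direction under the alternatives that keep all 4 libraries, and 4, 1, 2 and 5 turned without sh replicate 1, sh replicate 2, sd replicate 1 and sd replicate 2. Of 26 list medians, 10, 5, 11 and 12 turned in that order. Among alternatives that keep all 4 libraries at most 6 of 26 list medians turned (median ratio scaling).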

Other observations

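A microRNA gene stood out after its values were seen. Mir6400 (chromosome 4, 15942900 to 15942991, inside Decr1 on the same strand) had 13 and 9 reads in sd replicates 1 and 2 and 0 reads in each of the other 6 libraries. The control libraries were shallower, at 6415130 and 3658368 reads, so counts of 0 there say less. The FPKM of Mir6400 was 6.94 and 6.37 in sd and it is listed at 0 in sh. It reached the mean of 1 FPKM through the sd libraries alone, so no p is given. For Mir3473b the sd libraries held 4 and 3 reads, dd 4 and 5, and sh and control 0, at or near the floor of 3 reads. Both genes are shorter than 100 bases, so a few reads are worth several FPKM.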
